A study of Mus musculus with 4 samples.

Results

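The aminoacyl-tRNA synthetases are the enzymes that join each amino acid to its transfer RNA, and they were followed here as a family of 36 listed genes. A listed gene was measured if a probe of the arrays carried its symbol alone, or that symbol with 1 appended, and where it had several such probes the brightest on average was used. This gave 34 genes among the 19938 named genes of the series, 18 for enzymes of the cytosol and 16 for enzymes of mitochondria. Aars and Dars had no probe of this kind and were not analysed here. The gene listed as Mars was found as Mars1. The rule used no difference between arrays.

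Bone-marrow-derived macrophages were grown for 7 days from the marrow of female BalbC mice in medium conditioned by L929 cells, which supply macrophage colony stimulating factor. The groups were LPS/zVAD/Nec-1, LPS/zVAD, LPS and Control, with 1 array each. LPS is the bacterial lipopolysaccharide that activates TLR4 (10 ng/ml), zVAD is a caspase inhibitor (50 µM) and Nec-1, necrostatin-1, inhibits the kinase RIPK1 (30 µM). LPS with zVAD is widely used to bring macrophages to RIPK1-dependent necroptosis, and the series asked which inflammatory changes depend on that kinase. Control cells received none of the agents, and no array held zVAD or Nec-1 without LPS. For treatment times, the number of mice and any pooling, the sources used here give no information. With 1 array per group no spread between replicates exists and no test was made. Values below are log2 signals of an array, or log2 ratios, one array's log2 signal minus another's. A gene is counted as higher or lower where the arrays stand at least 2-fold apart, which is a rule of size.

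Each synthetase recognises its amino acid and the matching tRNA, and so sets how codons are read. For most amino acids, separate nuclear genes encode the enzyme of the cytosol and that of mitochondria, while Gars (glycine) and Kars (lysine) each serve both compartments from a single gene and stand with the cytosolic group here. Several cytosolic enzymes sit together in the multi-synthetase complex on the scaffold proteins Aimp1, Aimp2 and Eef1e1. When amino acids run short or the endoplasmic reticulum is stressed, phosphorylation of eIF2 alpha raises translation of the transcription factor ATF4, whose known targets include many cytosolic synthetase genes, amino acid transporters and enzymes of amino acid synthesis. In human cells the tryptophanyl enzyme is also known as an interferon gamma induced protein.

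Because ATF4 binds the C/EBP-ATF response element, the promoters of the family were searched for its letters TGATGNAA on both strands. The windows were those of RefSeq on GRCm38.p6, from 250 bases before to 50 bases after each annotated start, and 27 of the 36 listed genes had one. Matches lay in 5 of the 13 cytosolic genes with a window (Aars, Gars, Iars, Tars and Yars) and in 0 of the 14 mitochondrial ones, while 3.97% of all 32851 windows held a match. The match sites of the 4 measured genes are shown because their values recur below, read 5′ to 3′ on the strand of the gene, with the element in capitals. The printed stretch of Gars lies at chr6:55037941-55038008 on the plus strand and that of Iars at chr13:49682107-49682174 on the plus strand. That of Tars lies at chr15:11399636-11399703 on the minus strand and that of Yars at chr4:129189876-129189943 on the plus strand. The element began 30 bases before the start in Gars and 15 before it in Tars, and 7 and 3 bases after it in Iars and Yars. No match overlapped another motif searched.
Gars: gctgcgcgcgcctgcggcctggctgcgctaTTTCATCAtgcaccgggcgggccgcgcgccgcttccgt
Iars: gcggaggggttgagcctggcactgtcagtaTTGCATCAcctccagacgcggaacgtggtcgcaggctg
Tars: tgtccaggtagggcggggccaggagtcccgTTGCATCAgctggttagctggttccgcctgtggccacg
Yars: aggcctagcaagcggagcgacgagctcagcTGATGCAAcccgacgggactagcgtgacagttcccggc

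In Gars, Iars and Tars the element stands on the opposite strand, so its reverse complement is printed, and in Yars it reads along the gene. Matches to 3 other motifs were also searched. CACGTG, the E-box that MYC binds, lay in 5 of the 27 genes (Aars, Ears2, Farsb, Iars and Tars) and in 7.15% of all windows. TTCNNNGAA, a STAT site, lay in 3 (Aars, Kars and Nars2) and in 8.30% of windows. GAAANNGAA, the core of the interferon-stimulated response element, lay in 1 (Qars) and in 8.56% of windows. Of the genes at least 2-fold apart in a comparison (Nars2, Vars, Cars2, Mars2 and Rars2), Nars2 alone held a match, and no window was used for Vars. The STAT site of Nars2 began 147 bases before the start, and the stretch printed below lies at chr7:96951350-96951418 on the plus strand. A match describes letters and says nothing of binding.
Nars2: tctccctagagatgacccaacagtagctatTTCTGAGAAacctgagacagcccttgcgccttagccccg

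The cells carried macrophage markers on all arrays. Of 10 macrophage genes, 9 reached the median of the whole table (log2 6.47) on each array, and Cd163 on none. Among 6 stromal and endothelial genes, 4 were higher with LPS than in Control (Dcn, Pecam1, Cdh5 and Kdr), where 5.09% of all named genes were. The median of the list was 7.68 with LPS/zVAD/Nec-1, 7.07 with LPS/zVAD, 7.78 with LPS and 6.79 in Control. With LPS/zVAD against LPS, Dcn and Pecam1 were lower, where 2.21% of all named genes were. The collagen genes Col1a1 and Col1a2 of the same list had log2 ratios of -0.40 and -0.35 with LPS and 0.31 and 0.32 with zVAD. The 8 neutrophil genes had medians of 9.01, 8.53, 9.06 and 8.81 on the arrays in the same order. With LPS against Control, 2 of them were higher (Ly6g and S100a9), where 5.09% of all named genes were. In that comparison 7 of the 8 log2 ratios were above 0, where 36.0% of all named genes were. The part of other cells in the results below was not tested, and in bulk RNA fewer cells of a type and less RNA per cell cannot be told apart. All 34 synthetase genes reached log2 6.47 on at least 1 array. Pars2 did so in Control alone, and Ears2 lay at 6.46 with LPS/zVAD, so their differences rest partly on signals not separated from background here.

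LPS was set against Control to describe the response of the family to LPS itself. With LPS, 4 of the 34 genes were lower and 0 higher, and 30 of the 34 log2 ratios were below 0. The genes that were lower charge tRNAs with asparagine (Nars2), valine (Vars), cysteine (Cars2) and methionine (Mars2), and 3 of them serve mitochondria. Over all named genes, 4.43% were lower and 5.09% higher in this comparison, and among the 12203 genes past the filter on low signal (at least log2 6.47 on 1 array) 7.20% were lower. Among the same filtered genes 8.24% were higher. Ratios below 0 were found for 63.9% of all named genes and 60.1% of those past the filter. At 1.5-fold, 10 of the 34 were lower and 1 higher, where 11.0% and 8.98% of all named genes were.

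The median log2 ratio was -0.36 for the family and -0.10 for all named genes, and under each of 3 other scalings of the arrays the family's median lay below that of all genes by a similar amount (-0.24 to -0.30). Vars and Nars2 were lower by 2-fold under all 3. Cars2 (-0.97 and -0.95) was not with centred arrays or after cyclic loess, and Mars2 (-0.93, -0.93 and -0.90) under none of them.

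Nars2, the mitochondrial asparaginyl enzyme, had log2 signals of 6.95 with LPS/zVAD/Nec-1, 6.77 with LPS/zVAD, 7.40 with LPS and 8.67 in Control. With LPS it stood 2.41-fold below Control, and it alone of the family was at least 2-fold below Control on each of the 3 arrays with LPS. Vars, the cytosolic valyl enzyme, stood at 8.94, 9.07, 8.85 and 10.01 on the arrays in that order and stood 2.23-fold below Control with LPS. Cars2, the mitochondrial cysteinyl enzyme, stood at 8.04, 7.99, 7.96 and 9.03, which was 2.10-fold lower with LPS. In both genes the 3 arrays with LPS lay close together and Control stood above them. Mars2, the mitochondrial methionyl enzyme, was at 7.49, 8.02, 7.30 and 8.34, and with LPS stood 2.05-fold below Control. Its signal with LPS/zVAD lay nearer Control than the other arrays did.

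Next in size came Iars, the cytosolic isoleucyl enzyme, which is the single family gene with a second probe. Its probe of higher mean read 9.96 with LPS/zVAD/Nec-1, 10.36 with LPS/zVAD, 10.23 with LPS and 11.21 in Control, which is 1.97-fold lower with LPS. The other probe read 9.94, 10.22, 9.99 and 11.24 and was 2.39-fold lower, so the probes fall on opposite sides of the 2-fold rule. Yars2 (tyrosine) and Tars2 (threonine), both mitochondrial, had log2 ratios of -0.97 and -0.89. Farsb, the beta subunit of the cytosolic phenylalanyl enzyme, had one of -0.71, and Farsa, its alpha subunit, one of -0.23.

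Wars, the cytosolic tryptophanyl enzyme, went the other way. Its log2 signals on the arrays in the same order were 11.68, 11.62, 11.59 and 10.85, with Control the lowest. This is 1.67-fold with LPS over Control, under the 2-fold rule, and the 3 arrays with LPS differed by less than 0.1. Of 9 measured interferon stimulated genes listed beside it, 8 were higher with LPS (median log2 ratio 5.91), where 5.09% of all named genes were. Among them were Cxcl10 at 7.08 and Irf1 at 2.84, while Ido1, which did not pass the signal filter, had -0.16. A link between Wars and these genes was not tested. Cars and Kars had log2 ratios of 0.26 and 0.23, and Fars2, the mitochondrial phenylalanyl enzyme, one of 0.01.

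**Figure D1:**
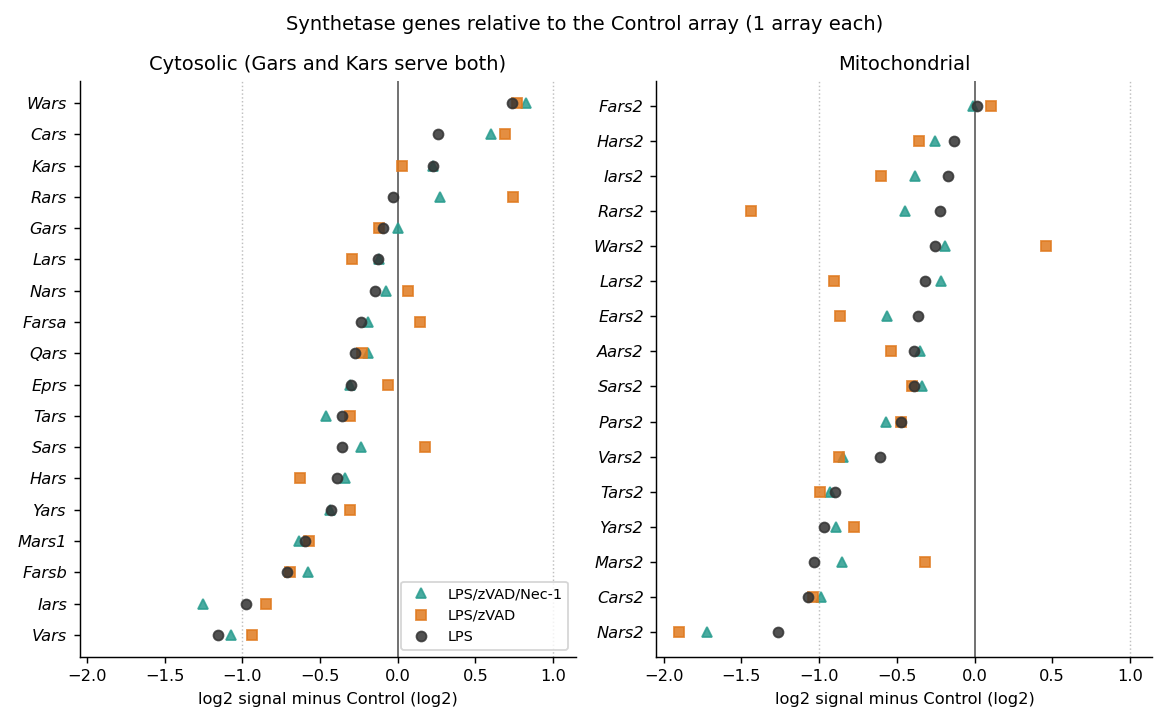
Log2 signal of each of the 34 measured synthetase genes minus its own Control signal, for LPS/zVAD/Nec-1 (triangles), LPS/zVAD (squares) and LPS (circles), with cytosolic genes left and mitochondrial genes right; dotted lines mark 2-fold and each point is 1 array. Most points lie left of 0, Wars lies right of it on all 3 arrays, and Rars2 and Nars2 stand furthest left with LPS/zVAD.

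The mitochondrial genes lay below Control more uniformly than the cytosolic ones. Of the 34 genes, 24 were below Control on each of the 3 arrays with LPS, against 38.4% of all named genes and 44.6% of those past the filter. They were 10 of the 18 cytosolic genes (8 to 12 under the other scalings) and 14 of the 16 mitochondrial genes (14 under each). The exceptions among the mitochondrial genes were Fars2 and Wars2, and Cars, Kars and Wars were above Control on all 3 arrays. These arrays share the same Control and are not replicates. Fars2 and Gars varied least, by 0.11 and 0.13 between their highest and lowest array, and Nars2 and Rars2 most, by 1.90 and 1.44. In the LPS comparison the median log2 ratio was -0.29 for cytosolic and -0.39 for mitochondrial genes, with 1 of 18 and 3 of 16 lower. The order of these medians turned after quantile normalization (-0.37 and -0.32, with 2 of 18 and 2 of 16 lower), and after cyclic loess they were -0.25 and -0.26, so no difference in size between the compartments is read from them. The 7 measured enzymes of the multi-synthetase complex (Eprs, Iars, Kars, Lars, Mars1, Qars and Rars) had a median of -0.27 and the 11 other cytosolic genes one of -0.36, an order that also turned after quantile normalization (-0.38 and -0.35).

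**Figure D2:**
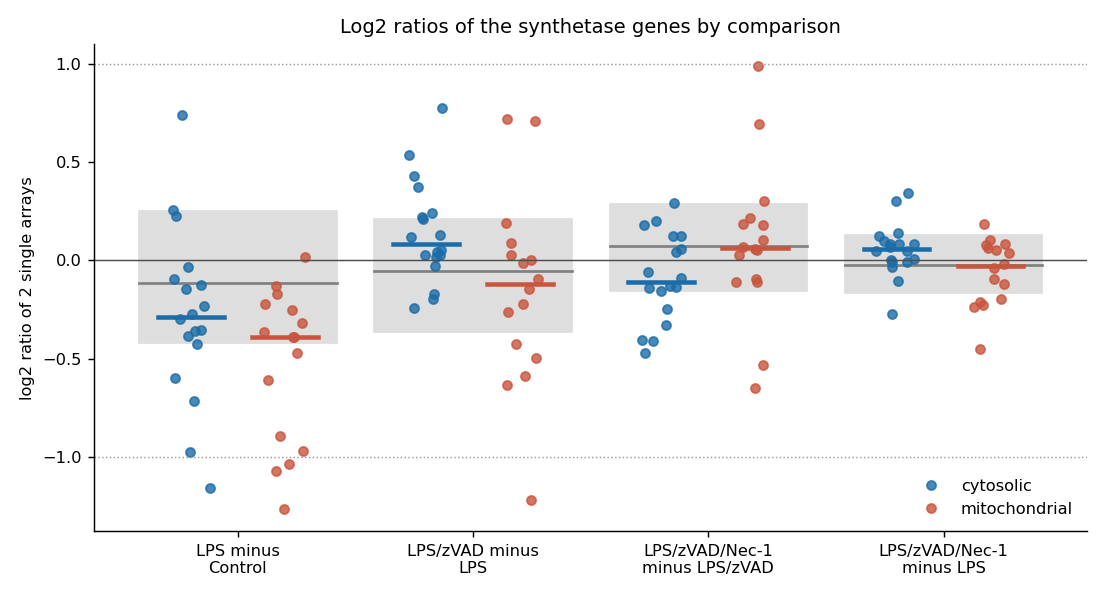
Log2 ratios of the cytosolic (blue) and mitochondrial (red) synthetase genes in 4 comparisons of single arrays, with thick bars at each group's median; the grey band and line give the quartiles and median of the 12203 genes past the signal filter, and dotted lines mark 2-fold. The family lies mostly below 0 for LPS against Control, spreads to both sides with zVAD, and is narrowest for LPS/zVAD/Nec-1 against LPS.

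LPS/zVAD was set against LPS to see what caspase inhibition added. Rars2, the mitochondrial arginyl enzyme, was lower, while the highest ratio, under the 2-fold rule, belonged to Rars, its cytosolic counterpart. In all, 1 of the 34 genes was lower and 0 higher, against 2.21% and 2.00% of all named genes (3.59% and 3.25% of those past the filter), so the family's count is close to the background. At 1.5-fold 3 were lower and 3 higher, where 8.20% and 5.03% of all named genes were. The median log2 ratio of 0.03 matched that of all named genes and became -0.02 with centred arrays.

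Rars2 had log2 signals of 9.03 with LPS/zVAD/Nec-1, 8.05 with LPS/zVAD, 9.26 with LPS and 9.48 in Control. The LPS/zVAD array alone was low, and the log2 ratio to LPS was -1.22 (2.33-fold lower). Rars stood at 12.34, 12.81, 12.04 and 12.07 on the arrays in the same order. Here the LPS/zVAD array was the highest, at a log2 ratio of 0.77 (1.71-fold) over LPS. The ratios of Rars and Rars2 thus lay 1.99 apart on the log2 scale, the widest gap among the 12 amino acids with a measured gene in each compartment.

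Other genes differed by less between LPS/zVAD and LPS. Wars2, the mitochondrial tryptophanyl enzyme, was at 7.53 with LPS/zVAD/Nec-1, 8.18 with LPS/zVAD, 7.47 with LPS and 7.72 in Control, so its highest signal came with LPS/zVAD (log2 ratio 0.71 to LPS). Mars2 had a log2 ratio of 0.72. Sars, the cytosolic seryl enzyme, was at 10.66, 11.07, 10.53 and 10.89 (0.53), and Cars, the cytosolic cysteinyl enzyme, at 9.76, 9.85, 9.42 and 9.17 (0.43). The signal of Cars with LPS/zVAD/Nec-1 lay close to that with LPS/zVAD, while that of Wars2 lay close to LPS. On the low side, Lars2, the mitochondrial leucyl enzyme, was at 7.84, 7.14, 7.73 and 8.05, with its lowest signal in LPS/zVAD (-0.59). Nars2, Ears2 (mitochondrial glutamyl) and Iars2 (mitochondrial isoleucyl) had log2 ratios of -0.64, -0.50 and -0.43.

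**Figure D3:**
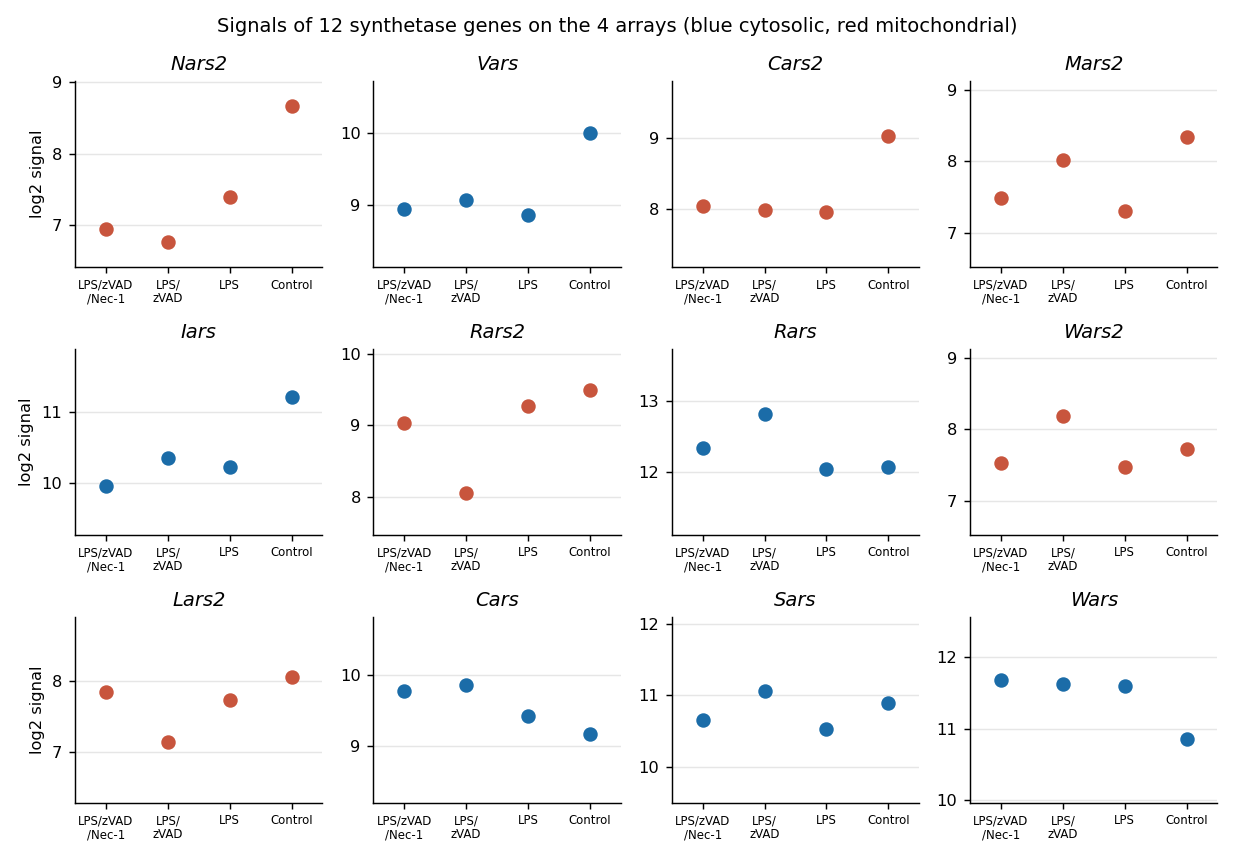
Log2 signals of 12 synthetase genes on the 4 arrays, 1 point per array, on vertical axes of equal span and different position. Control stands above the arrays with LPS for Nars2, Vars, Cars2 and Iars and below them for Wars, while LPS/zVAD is the lowest array for Rars2 and Lars2 and the highest for Rars, Sars and Wars2.

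With zVAD, log2 ratios above 0 were more frequent among cytosolic than among mitochondrial genes. They were found for 14 of the 18 cytosolic genes (10 with centred arrays, 15 after quantile normalization and 15 after cyclic loess). Of the 16 mitochondrial genes 6 had them (4, 7 and 7). The share was 54.8% of all named genes and 44.8% of those past the filter. Ratios below 0 were found for 45.1% of all named genes and 55.1% of those past the filter. The mitochondrial count below 0, 10 of 16, is close to the latter share. The median log2 ratio was 0.09 for cytosolic and -0.12 for mitochondrial genes and kept its sign under these 3 scalings. It was 0.03 for all named genes and -0.05 for those past the filter. In 8 of the 12 pairs for the same amino acid the cytosolic gene had the higher ratio, with a median difference of 0.41 on the log2 scale, cytosolic minus mitochondrial. The exceptions were histidine, methionine, tryptophan and tyrosine. For LPS against Control the cytosolic gene had the higher ratio in 9 of the 12 pairs (8 after quantile normalization or loess), with a median difference of 0.32 (0.18 after quantile normalization), and isoleucine, valine and histidine were the exceptions. These are counts of genes on single arrays, and whether the compartments differ beyond the spread of arrays was not tested.

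**Figure D4:**
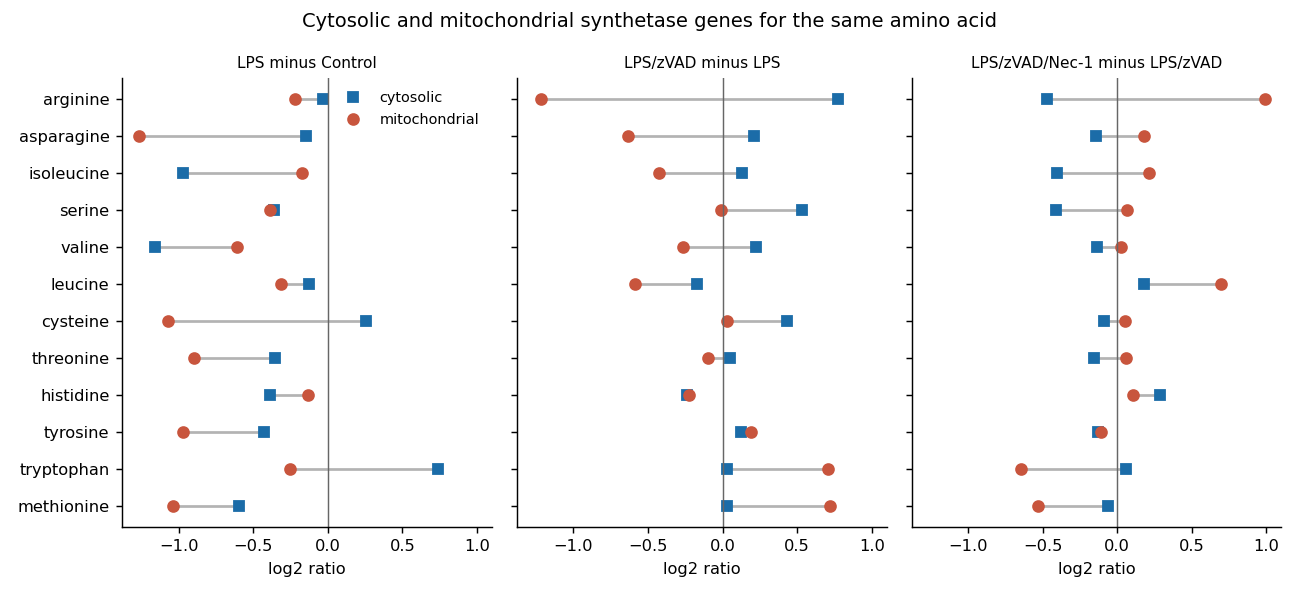
Log2 ratios of the cytosolic (squares) and mitochondrial (circles) synthetase genes for 12 amino acids, in 3 comparisons of single arrays, ordered by their difference for LPS/zVAD against LPS. Arginine has the widest gap with zVAD, with Rars at 0.77 and Rars2 at -1.22. Its gap opens to the opposite side with Nec-1, which is partly built in because both comparisons share the LPS/zVAD array.

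Iars, Yars, Tars and Gars, whose promoters hold the C/EBP-ATF response element printed above, had log2 ratios of 0.13, 0.12, 0.05 and -0.03 for LPS/zVAD against LPS. Other cytosolic genes had windows without the element. Sars, whose window held none of the 4 motifs, had 0.53. Qars, Farsb and Kars, whose windows held another of the motifs, had 0.04, 0.02 and -0.20. No promoter window was used for Rars or Cars, and Aars, which holds the element, was not measured. The set is therefore incomplete, and a link between the element and these ratios was not tested.

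LPS/zVAD/Nec-1 was set against LPS/zVAD to ask which zVAD differences depend on RIPK1 kinase activity. No family gene passed 2-fold in either direction, against 0.697% of all named genes higher and 2.05% lower (1.14% and 3.32% of those past the filter). At 1.5-fold 2 were higher and 1 lower, where 4.53% and 5.12% of all named genes were. The highest log2 ratios were those of Rars2 at 0.99 (1.98-fold, just under the rule) and Lars2 at 0.69, both of which had been low with LPS/zVAD. The lowest were Wars2 at -0.65, Mars2 at -0.53 and Rars at -0.47. Nars2 had a log2 ratio of 0.18. Among the 12 pairs the cytosolic gene had the lower ratio in 9, with a median difference of -0.19. The comparison shares the LPS/zVAD array with the one before it, so opposite signs in the 2 comparisons are partly built in.

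LPS/zVAD/Nec-1 was also set directly against LPS, 2 arrays that the zVAD array does not enter. All 34 genes lay between -0.45 (Nars2) and 0.34 (Cars), with 0 past 2-fold and 0 past 1.5-fold, where 0.0451% of all named genes were higher and 0.336% lower by 2-fold (0.0738% and 0.541% of those past the filter), and 0.647% and 1.79% by 1.5-fold. Rars and Iars followed in size, at 0.30 and -0.27. Rars2 stood at -0.23 and Wars2 at 0.06. With Nec-1 present, 26 of the 34 genes had a signal nearer to LPS than to LPS/zVAD, against 53.7% of all named genes and 62.7% of those past the filter. That count was 25 with centred arrays (55.1% of all named genes), but 20 after quantile normalization and 21 after cyclic loess, which is close to the 57.6% and 58.2% of all named genes under those scalings.

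A mitochondrial partner of the enzymes, Gatc, had its lowest signal on the LPS/zVAD array, as Rars2 did. Mitochondria have no glutaminyl synthetase of their own and make their glutaminyl-tRNA with an amidotransferase of the subunits Gatb, Gatc and Qrsl1. Gatc had log2 signals of 9.72 with LPS/zVAD/Nec-1, 8.60 with LPS/zVAD, 9.68 with LPS and 10.65 in Control. It was 2.11-fold lower with LPS/zVAD than with LPS, where 2.21% of all named genes were lower. With Nec-1 it was 2.17-fold higher than without it, where 0.697% of all named genes were higher. Both ratios share the LPS/zVAD array, so their opposite signs are partly built in. The first of these ratios was -0.96 after quantile normalization and -0.94 after cyclic loess, under the rule. Gatb and Mtfmt, which formylates the initiator methionyl-tRNA, had log2 ratios of -0.42 and -0.68 for LPS/zVAD against LPS, and Qrsl1 one of -0.04. The mitochondrial elongation factors Tsfm, Tufm and Gfm1 had ratios of -0.46, -0.45 and -0.40, while the 6 other genes of the list, which serve the cytosol, lay on both sides of 0, from -0.23 (Eif5a) to 0.27 (Eef2). None of the 9 measured genes of this elongation list, which also holds the kinase gene Eef2k, passed 2-fold in any of the 4 comparisons. Over all named genes, at most 5.09% were higher and 4.43% lower in any of these comparisons.

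The scaffold gene Aimp2 was lower with LPS than in Control (log2 8.72 with LPS/zVAD/Nec-1, 8.34 with LPS/zVAD, 8.76 with LPS and 9.88 in Control, a log2 ratio of -1.12). Aimp1 and Eef1e1 had log2 ratios of 0.01 and -0.77. Of 17 genes of tRNA maturation and export, 5 were lower with LPS and 0 higher, with a median log2 ratio of -0.63, where 4.43% of all named genes were lower and 5.09% higher. They were the tRNA methyltransferase genes Trmt61a at -1.71, Mettl1 at -1.51 and Trmt1 at -1.13 and the pseudouridine synthase genes Pus7 at -1.37 and Pus1 at -1.32. With zVAD, Clp1, an RNA kinase of tRNA splicing, was the single one higher, at 1.04 (0.99 with centred arrays), where 2.00% of all named genes were. Of 5 synthetase-like and editing genes, 0 passed 2-fold in any comparison, where at most 5.09% of all named genes were higher and 4.43% lower. Yrdc, which takes part in modifying tRNAs, had the largest ratios (0.76 with zVAD and -0.83 with Nec-1). These ratios share the LPS/zVAD array, so their opposite signs are partly built in.

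The ATF4 gene itself and a few genes of its response stood higher with zVAD than without it. Atf4 was at log2 10.56 with LPS/zVAD/Nec-1, 11.22 with LPS/zVAD, 10.05 with LPS and 9.56 in Control, a log2 ratio of 1.16 for LPS/zVAD against LPS. Of the 29 measured genes of the ATF4 and amino acid response list, 3 were higher and 0 lower in that comparison (median 0.17), where 2.00% of all named genes were higher and 2.21% lower. The others were Ppp1r15a, a phosphatase subunit that reverses eIF2 alpha phosphorylation, at 3.24, and Chac1, a glutathione-degrading enzyme, at 1.49. Asns, asparagine synthetase, had a log2 ratio of 0.76, Trib3, a pseudokinase, 0.79, Cth, which makes cysteine from cystathionine, 0.81, and Ddit3, which encodes CHOP, 0.48. On the other side of 0, Ddit4, an inhibitor of mTORC1, had -0.72. With Nec-1, Ppp1r15a alone of the list was lower (-2.58), where 2.05% of all named genes were, and Chac1 and Atf4 had ratios of -0.76 and -0.66. Both comparisons share the LPS/zVAD array, so these opposite signs are partly built in. For LPS/zVAD/Nec-1 against LPS, Ppp1r15a, Chac1 and Atf4 had ratios of 0.66, 0.73 and 0.50. In that comparison 15 of the 29 ratios were above 0 and 13 below. None of the 29 passed 2-fold, where 0.0451% of all named genes were higher and 0.336% lower. With LPS against Control 7 of the 29 were higher (5.09% of all named genes), led by Nupr1 at 2.94 and Cebpb at 2.30. Shmt2, the mitochondrial serine hydroxymethyltransferase, was the single one lower, at -1.11 (4.43% of all named genes).

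Several genes for the transporters that supply amino acids had larger ratios than any synthetase gene. With LPS/zVAD against LPS, 4 of 18 transporter genes were higher and 2 lower, beside 2.00% and 2.21% of all named genes. Those higher were Slc38a2 at 2.66 and Slc38a1 at 1.79, which carry small neutral amino acids and glutamine, Slc7a1, a carrier of cationic amino acids, at 1.35, and the glutamine carrier Slc1a5 at 1.05. Slc38a2 had log2 signals of 10.62 with LPS/zVAD/Nec-1, 12.41 with LPS/zVAD, 9.75 with LPS and 11.47 in Control. Slc7a7 and Slc36a1 were the lower ones, at -1.08 each, and neither passed 2-fold after quantile normalization or cyclic loess. With Nec-1, Slc38a2, Slc38a1 and Slc7a1 were lower, at -1.78, -1.29 and -1.06, where 2.05% of all named genes were. Both comparisons share the LPS/zVAD array, so these opposite signs are partly built in. For LPS against Control, where 4.43% of all named genes were lower and 5.09% higher, 5 transporter genes were lower and 2 higher. Those lower ran from Slc1a5 at -1.84 to Slc7a6 at -1.07 (-0.97 with centred arrays). Their count was 4 with centred arrays or after cyclic loess and 5 after quantile normalization. The 2 higher were the cystine carrier gene Slc7a11 at 4.29 and the arginine carrier gene Slc7a2 at 3.92.

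**Figure D5:**
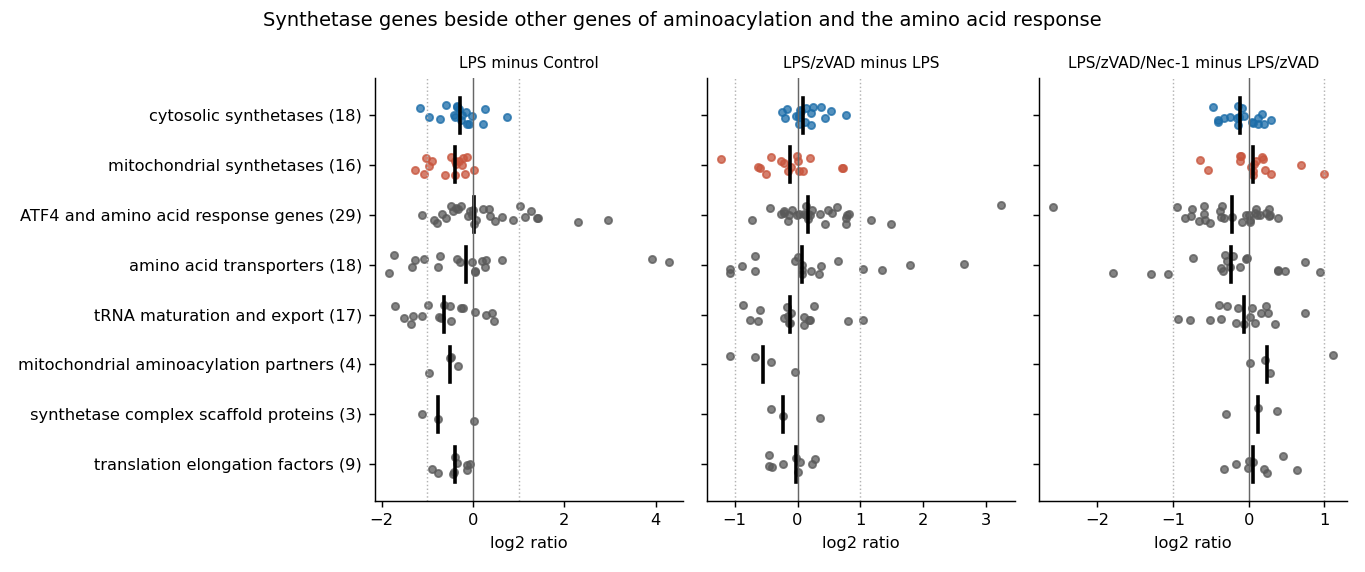
Log2 ratios of the cytosolic and mitochondrial synthetase genes and of 6 lists of related genes (measured genes in brackets) in 3 comparisons of single arrays, with black bars at medians, dotted lines at 2-fold and axes that differ between panels. Single genes of the ATF4 and transporter lists reach beyond 2 on the log2 scale, while the synthetase genes stay within -1.27 and 0.99.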

How the data were processed

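The authors' deposited table held log2 signals of 35556 probes on 4 Affymetrix arrays. Per the submitters' processing notes, Affymetrix Expression Console produced them. That they are log2 values was judged from their range, with array medians of 6.41 to 6.52. The sources used here give no version, background correction or normalization, so scaling could move every ratio, and 3 scalings were tried (limma 3.58.1 in R 4.3.3). Symbols came from the platform annotation: 21789 probes had 1 symbol, 1621 several and 12146 none, and probes with several or none were not named. Samples were grouped by title. Ratios, counts and medians were computed in Python 3.11.15 with pandas 2.3.3 and checked on simulated data. The number of arrays limits precision, and detection calls were not used.

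The genes and 11 pathway lists (127 genes, 116 measured) were chosen with earlier results of these data known. Full values were given for genes at least 2-fold apart and for the 4 with the largest ratio in each comparison, and of a list for up to 4 genes and key genes. Wars, Sars, the complex grouping, the element-bearing promoters and list genes beyond these were chosen after their values were seen, and printing promoters of genes under 2-fold departs from the fixed rule. No protein sequences were used here. Of the list of partners of Eprs in the GAIT complex, Syncrip alone was measured, at a log2 ratio of -0.85 with LPS.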

Additional observations from a re-analysis of the deposited data

How the results depend on the processing

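No paired analysis was possible because each group had 1 array. With LPS against Control, the count of lower genes was 2 with centred arrays or cyclic loess (4 as deposited), and 1 of the 16 mitochondrial genes (3 as deposited), since Cars2 and Mars2 then lay under 2-fold. It was 2 of the cytosolic genes (1 as deposited) after quantile normalization or with the mean of all probes, since Iars joined Vars. Mars2 was under 2-fold after quantile normalization too. The LPS median was -0.26 for all genes, -0.18 for cytosolic and -0.29 for mitochondrial ones with centred arrays, and -0.25 for all and -0.26 for mitochondrial ones after loess. Centring moved the median of all named genes in this comparison to 0.01 from -0.10 as deposited. For LPS/zVAD against LPS the median of all genes was -0.0175 with centred arrays and 0.14 after loess, and that of cytosolic genes 0.21 after loess. For LPS/zVAD/Nec-1 against LPS/zVAD it turned to -0.0184 for all and -0.0062 for mitochondrial genes after loess. For LPS/zVAD/Nec-1 against LPS it turned to -0.0334 for all and -0.0160 for cytosolic genes with centred arrays, and to 0.0465 for mitochondrial genes after quantile normalization. The cause of these shifts was not tested. At 1.5-fold, LPS gave 10 lower and 1 higher (4 and 1 cytosolic, 6 and 0 mitochondrial), zVAD 3 and 3 (0 and 1 cytosolic, 3 and 2 mitochondrial) and Nec-1 against LPS/zVAD 1 lower and 2 higher, all mitochondrial. At 3-fold every count was 0. The signal filter removed no family gene. The share of higher genes among all genes past 2-fold moved by scaling too, to 57.5% after quantile normalization and 59.4% after loess (47.5% as deposited) for LPS/zVAD against LPS.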

Other observations

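The eIF2 alpha kinases and the subunits of eIF2B, which together set the rate of translation start upstream of ATF4, had 9 measured genes, of which LPS against Control put 1 higher and 1 lower, beside 5.09% and 4.43% of all named genes. Eif2ak2, the double-stranded RNA sensor PKR, had a log2 ratio of 1.96 and Eif2ak3, the endoplasmic reticulum kinase PERK, one of -1.28. With LPS/zVAD against LPS all 9 had ratios below 0, from -0.83 (Eif2b4) to -0.02 (Eif2ak4). None passed 2-fold, where 2.00% of all named genes were higher and 2.21% lower. Ratios below 0 were found for 45.1% of all named genes in that comparison and for 55.1% of those past the signal filter, which all 9 passed.

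Among 12 genes of the MYC and mTORC1 axis, Myc was lower with LPS than in Control (log2 10.65 with LPS/zVAD/Nec-1, 10.07 with LPS/zVAD, 10.20 with LPS and 11.63 in Control). Mxd1, which encodes a partner of MAX that competes with MYC, was higher, at a log2 ratio of 4.39, and so was Max, at 1.15. In all, 2 of the 12 were higher and 1 lower, where the shares of all named genes were 5.09% and 4.43%. Flcn, folliculin, a regulator of the Rag GTPases, had log2 ratios of 0.99 with zVAD and -0.94 with Nec-1. These ratios share the LPS/zVAD array, so their opposite signs are partly built in. Synthetase genes of class I and class II, the structural classes of the enzymes, had medians of -0.34 over 18 genes and -0.36 over 15 for LPS against Control, leaving out Eprs, which holds an enzyme of each class.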
